A study of Mus musculus with 10 samples.

Results

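The 8 immunoglobulin heavy chain constant genes of the mouse, Ighm, Ighd, Ighg3, Ighg1, Ighg2b, Ighg2c, Ighe and Igha, were followed through 10 RNA-seq libraries of sorted splenic plasma cells. They were taken by symbol, through the Ensembl gene identifiers of the deposited files and GENCODE release M21 on the build GRCm38, and all 8 were found among 47719 identifiers. The libraries came from IgG1 plasma cells (5 libraries) and IgM plasma cells (5 libraries). In both groups the transferred B cells had S1PR2-CreERT2, which is a tamoxifen-dependent Cre driven by a promoter that is active in germinal centre B cells, together with the Ai14 reporter, which makes tdTomato after Cre has acted. They also carried the B1-8germ heavy chain variable region, which gives NP-binding antibodies together with lambda light chains. Recipients in both groups were wild type and were immunized on day 0 with NP-CGG/alum and given tamoxifen on days 5 and 6; tdTomato+ plasma cells of donor origin were sorted on day 10. The labels give neither the age nor the strain of the animals, nor whether each library had its own animal. The p-values therefore measure the spread between these libraries only, and that spread may be technical.

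A B cell assembles its antibody heavy chain from a variable region exon and the constant gene that lies next to it. In a naive B cell that gene is Ighm, and Ighd is made from the same long primary transcript by alternative splicing. Class switch recombination cuts the switch regions ahead of Ighm and ahead of one downstream constant gene, deletes the DNA between them and so brings a new constant gene next to the variable exon. Each constant gene ahead of which a switch region lies can also be transcribed without a variable exon, as a germline transcript from its own I promoter, and counting reads per gene does not separate such RNA from the messenger RNA of an antibody.

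All 8 genes lie on the minus strand of chromosome 12, so that the order of transcription runs from high to low coordinates. Ighm occupies 113418558 to 113422730, Ighd 113406604 to 113416324, Ighg3 113356224 to 113361232 and Ighg1 113325240 to 113330523. Farther downstream lie Ighg2b at 113302965 to 113307933, Ighg2c at 113285325 to 113288932, Ighe at 113269260 to 113273248 and Igha at 113254830 to 113260236. No other annotated gene overlaps any of them.

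The 4 gamma genes are closely related copies, and how far their sequences differ sets how well reads can be assigned to one of them. The first 120 bases of the exon for the CH1 domain, the constant domain next to the variable region, are shown from GENCODE M21 transcripts (GRCm38, minus strand, chr12:113330404-113330523 for Ighg1, chr12:113307814-113307933 for Ighg2b, chr12:113288813-113288932 for Ighg2c, chr12:113361113-113361232 for Ighg3). Capitals mark the 39 positions at which the 4 genes are not all alike.
Ighg1: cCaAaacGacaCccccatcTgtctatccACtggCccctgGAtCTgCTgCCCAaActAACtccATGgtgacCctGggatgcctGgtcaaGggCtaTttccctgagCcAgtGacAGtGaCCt
Ighg2b: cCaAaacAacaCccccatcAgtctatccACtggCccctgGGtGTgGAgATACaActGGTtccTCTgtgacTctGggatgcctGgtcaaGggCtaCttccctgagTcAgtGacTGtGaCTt
Ighg2c: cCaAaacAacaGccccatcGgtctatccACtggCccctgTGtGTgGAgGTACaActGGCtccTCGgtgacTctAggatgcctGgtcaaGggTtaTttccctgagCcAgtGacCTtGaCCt
Ighg3: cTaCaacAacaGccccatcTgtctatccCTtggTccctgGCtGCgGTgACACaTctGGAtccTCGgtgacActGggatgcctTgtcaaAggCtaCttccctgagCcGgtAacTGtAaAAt

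The hinge, the flexible stretch between the antibody arms and the stem, differs between the gamma isotypes in length and in its cysteines, and its exons are shown for that reason (GENCODE M21 transcripts, GRCm38, minus strand, chr12:113329844-113329882 for Ighg1, chr12:113307261-113307326 for Ighg2b, chr12:113288263-113288325 for Ighg2c, chr12:113360529-113360576 for Ighg3). Capitals mark the cysteine codons in frame, 4 in Ighg1, 4 in Ighg2b, 3 in Ighg2c and 1 in Ighg3.
Ighg1: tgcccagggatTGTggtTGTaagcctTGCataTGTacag
Ighg2b: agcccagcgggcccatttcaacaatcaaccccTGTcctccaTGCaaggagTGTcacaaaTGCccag
Ighg2c: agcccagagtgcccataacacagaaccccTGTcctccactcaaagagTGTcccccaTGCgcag
Ighg3: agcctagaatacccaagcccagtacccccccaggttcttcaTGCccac

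Over the coding sequence Ighg2b and Ighg2c were the closest pair, with 85.6% identity, and the other gamma pairs lay between 73.9% and 75.5%. Pairs with Ighm, Ighd, Ighe or Igha lay between 37.6% and 49.6%. Of the 1276 windows of 50 bases in the Ighg2c exons, 70 (5.49%) occur unchanged in Ighg2b, and no such window of Ighg2c occurs in Ighg1. Ighg2b shares 10 of its 2628 windows (0.381%) with Ighg1 and 39 (1.48%) with Ighg3, while Ighm, Ighd, Ighe and Igha share none with any other of the 8 genes. No window of 100 bases is shared between any pair. Ighg3 shares 10 of its 2463 windows (0.406%) with Ighg1. The authors' rule for fragments that match several genes is not given in the sources used here, so the gamma values carry that uncertainty. Ighg2c shares the largest part of its windows, but with Ighg2b and not with Ighg1. In IgG1 libraries the mean of Ighg1 was 93807 FPKM, against 217 FPKM for Ighg3 and 276 FPKM for Ighg2b. The part of misassigned Ighg1 fragments in the levels and shares of these 2 genes was not tested.

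Values are FPKM, fragment numbers scaled by transcript length and library size, so levels of different genes can be set side by side. Depth estimated from the value of 1 fragment in low genes, with a fragment of 200 bases assumed, was 25700000 to 37000000 fragments in IgG1 libraries and 26000000 to 30100000 in IgM libraries. The plasma cell markers Sdc1 (syndecan-1) and Xbp1, a transcription factor of secretory cells, were high in every library. Sdc1 was at 242 to 276 FPKM in IgG1 and 266 to 299 FPKM in IgM libraries, and Xbp1 at 3058 to 3367 and 2765 to 3087 FPKM. Other markers of the list stood at lower levels. Prdm1 was at 24.8 to 32.2 FPKM in IgG1 and 48.7 to 55.3 FPKM in IgM libraries (log2 difference -0.86). Cd28 was at 30.5 to 35.5 and 36.0 to 56.8 FPKM (-0.49), and Slamf7 differed by -0.59. Of 9 plasma cell markers 8 (88.9%) were called lower and 1 (11.1%), Xbp1, higher in IgG1, beside 20.2% and 18.1% of all genes tested. With J and D segments left out of the library total, 5 were lower and 1 higher. Of all 9889 genes tested on that scale, 1187 were lower and 2839 higher. Tnfrsf17 (BCMA), a survival receptor of plasma cells, was at 42.2 to 51.8 FPKM in IgG1 and 121 to 146 FPKM in IgM libraries (log2 difference -1.49), and Jchain, which joins IgM and IgA into polymers, at 19438 to 23043 FPKM in IgG1 and 36165 to 40282 FPKM in IgM libraries (-0.88). Genes listed above 0 numbered 13286 to 13961 in IgG1 and 15121 to 15800 in IgM libraries, without overlap. Of 9 markers of naive and follicular B cells, 7 stayed below 5 FPKM in every library, among them Pax5 at up to 0.176 FPKM in IgG1 and up to 0.335 FPKM in IgM libraries. Ms4a1 (CD20), which is not among those 7, was at 35.4 to 51.2 FPKM in IgG1 and 53.7 to 76.4 FPKM in IgM libraries. For 9 T cell markers the sum was 2.29 to 3.81 FPKM in IgG1 and 3.97 to 9.15 FPKM in IgM libraries. Cd3d, Cd8a, Trbc1 and Trbc2 were at 0 in all IgG1 libraries and at most 1.65 FPKM in IgM libraries. Trac was at up to 0.696 FPKM in IgG1 and 1.38 to 3.91 FPKM in IgM libraries, without overlap. Its log2 difference was -1.47 (limma with Benjamini-Hochberg adjustment, adjusted p = 0.000341). Cd4 went the other way, at 0.773 to 3.10 FPKM in IgG1 and at most 0.726 FPKM in IgM libraries. The log2 difference of Cd4 was 1.12 (limma with Benjamini-Hochberg adjustment, adjusted p = 0.00458). Lck, at -0.49, did not pass. Summed markers of mast cells and basophils, cells that carry IgE on their surface, were 0 FPKM in IgG1 and up to 1.78 FPKM in IgM libraries. Thus 8 of the 9 plasma cell markers, Ms4a1 and the number of genes above 0 were lower in IgG1 libraries. So were the sums for T cells and for mast cells and basophils, and the switched isotypes that were not sorted on. The sums for myeloid cells, NK cells, and erythroid cells and platelets ran the other way, with overlapping groups. Some marker differences were small, at -0.13 for Sdc1, -0.17 for Mzb1 and -0.24 for Irf4, with overlapping groups. With median-ratio scaling 6 of the 9 plasma cell markers were called lower. The part of all these differences in the results was not tested. Summed markers of myeloid cells, NK cells, and erythroid cells and platelets were at most 5.82 FPKM in any library. The myeloid sum was 1.78 to 5.64 FPKM in IgG1 and 0.66 to 3.403 FPKM in IgM libraries. For NK cells it was 1.598 to 3.12 and 0.8495 to 1.99 FPKM, and for erythroid cells and platelets 2.11 to 5.82 and 0.0764 to 5.603 FPKM. No tested gene of these lists was called on the deposited scale. In bulk RNA, fewer cells that express a gene and less RNA per cell cannot be told apart.

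Ighm and Ighg1 are the genes behind the sort, so their levels check the labels and are given as a description. Ighm, the mu chain, had 1205, 1110, 1306, 1120 and 1112 FPKM in IgG1 libraries 1 to 5, against 85091, 84033, 86246, 81237 and 90279 FPKM in IgM libraries 1 to 5. The groups stood far apart, and the libraries of each lay within 1.18-fold (IgG1) and 1.11-fold (IgM) of each other. Ighg1, the gamma 1 chain, had 93358, 86880, 88847, 92335 and 107616 FPKM in IgG1 libraries, against 18488, 11627, 9465, 19243 and 16047 FPKM in IgM libraries. All 10 libraries went with their labels, yet Ighg1 was far from absent in IgM libraries and there spread 2.03-fold from library to library. The log2 difference of IgG1 minus IgM was -6.19 for Ighm (SE 0.04) and 2.70 for Ighg1 (SE 0.20).

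**Figure D1:**
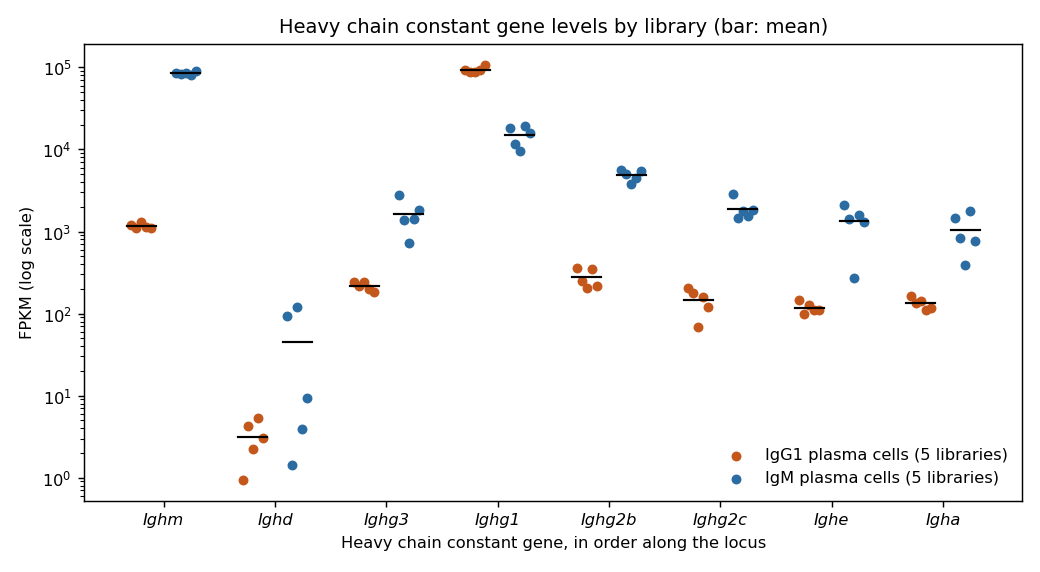
FPKM of each heavy chain constant gene in every library, on a log axis, with the genes in their order along the locus. Each point is 1 library, IgG1 left and IgM right within a gene, and the black bar is the group mean. IgG1 and IgM points do not overlap for 7 genes, with Ighg1 alone higher in IgG1, and for Ighd they overlap.

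Beyond the sorted pair, the 5 other switched isotypes were all much lower in IgG1 plasma cells. Over the whole table limma called 38.3% of 9900 genes, 18.1% as higher and 20.2% as lower in IgG1 (Benjamini-Hochberg adjusted p below 0.05). Of the 8 constant genes 6 were called lower, 1 (Ighg1) higher, and Ighd did not pass. Of the 6 that were not sorted on, 5 were lower. How far the sort for IgM or IgG1 also set the levels of these 6 genes was not tested. Groups did not overlap for 26.3% of all genes tested, with every IgG1 library below every IgM library for 13.3%, and for 7 of the 8 constant genes, 6 of them below. The median log2 difference was -3.01 over the 6 genes that were not sorted on and -0.05 over all genes tested.

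Ighg2b, the gamma 2b chain, showed the largest log2 difference among the genes that were not sorted on. It had 360, 251, 203, 350 and 217 FPKM in IgG1 libraries 1 to 5, against 5629, 5043, 3758, 4510 and 5455 FPKM in IgM libraries. The lowest IgM library was thus still an order of magnitude above the highest IgG1 library. The log2 difference was -4.16 (SE 0.20, limma with Benjamini-Hochberg adjustment, adjusted p = 7.22e-07).

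Ighg2c, the gamma 2c chain of mice that lack the gamma 2a allele, followed Ighg2b in size of difference. Its level was 205, 180.5, 68.4, 159 and 121 FPKM in IgG1 libraries, against 2880, 1472, 1776, 1543 and 1827 FPKM in IgM libraries. IgG1 library 3 was the lowest of its group and IgM library 1 the highest of its own, while the groups stayed well apart. The log2 difference was -3.73 (SE 0.32, limma with Benjamini-Hochberg adjustment, adjusted p = 3.17e-05).

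Ighe, the epsilon chain of IgE, is a constant gene that, like Ighg1, is reached by switching under interleukin 4. It stood at 144, 97.9, 127, 109 and 111 FPKM in IgG1 libraries, against 2101, 1425, 268, 1567 and 1319 FPKM in IgM libraries. IgM library 3 lay far below the other IgM libraries but still above every IgG1 library. The log2 difference was -3.23 (SE 0.53, limma with Benjamini-Hochberg adjustment, adjusted p = 0.00152), and without IgM library 3 it was -3.74.

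Igha, the alpha chain of IgA and the last constant gene of the locus, had 164, 135, 143, 110 and 118 FPKM in IgG1 libraries, against 1477, 835, 392, 1801 and 774 FPKM in IgM libraries. Its IgM values spread 4.59-fold and its IgG1 values 1.49-fold, without overlap. The log2 difference was -2.79 (SE 0.40, limma with Benjamini-Hochberg adjustment, adjusted p = 0.000680).

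Ighg3, the gamma 3 chain, is the switched gene nearest to Ighd and lies between Ighm and Ighg1, on DNA that a switch to IgG1 deletes from the switched chromosome. It had 240, 220, 241, 202 and 181 FPKM in IgG1 libraries, against 2754, 1389, 734, 1430 and 1811 FPKM in IgM libraries. Among the genes called lower its fitted log2 difference was the smallest, at -2.78 (SE 0.32, limma with Benjamini-Hochberg adjustment, adjusted p = 0.000178), with the groups apart in every library. Mean FPKM in IgG1 libraries came to 13.4% of the IgM mean for Ighg3, against 12.7% for Igha, 8.83% for Ighe, 7.74% for Ighg2c and 5.66% for Ighg2b.

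Ighd, the delta chain that is co-expressed with mu in naive B cells, was by far the lowest of the 8 genes and the most uneven. It had 0.937, 4.25, 2.24, 5.33 and 3.09 FPKM in IgG1 libraries, against 93.4, 1.43, 119, 3.97 and 9.33 FPKM in IgM libraries. IgM libraries 1 and 3 stood an order of magnitude above the other 8 libraries, and IgM libraries 2 and 4 lay within the IgG1 range. The log2 difference of -2.14 (SE 1.16) did not pass the test (limma with Benjamini-Hochberg adjustment, adjusted p = 0.187). At the estimated depth these levels stand for about 46 to 330 fragments in IgG1 libraries and 75 to 6827 fragments in IgM libraries.

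Relative to Ighm, the order of the groups in Ighd turned round. Ighd FPKM came to 0.0778%, 0.383%, 0.172%, 0.476% and 0.278% of Ighm FPKM in IgG1 libraries 1 to 5, against 0.110%, 0.00170%, 0.138%, 0.00489% and 0.0103% in IgM libraries. The mean was 0.277% ± 0.159 in IgG1 and 0.0530% ± 0.0657 in IgM libraries (SD over 5 libraries each), 0.224 percentage points apart (exact permutation test, two-sided, p = 0.0238, or 0.0476 after adjustment over the 6 such tests made here). IgG1 library 1 lay below IgM libraries 1 and 3. Leaving out a library ended the call in 9 of 10 cases, with adjusted p up to 0.0952 (exact permutation tests). IgG1 library 1 was the exception, and its removal separates the groups by construction. Ighm, the denominator of this ratio, is the gene that the sort sets apart. The p-value of the ratio is therefore not a result about Ighd alone.

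The order of the genes by level was not the same within the groups. In IgG1 libraries Ighg1 was followed by Ighm, Ighg2b, Ighg3, Ighg2c, Igha, Ighe and Ighd. The step below Ighg1 was 80.2-fold and that below Ighm 4.24-fold in mean FPKM, without overlap, whereas the ranges of neighbours overlapped at each step between Ighg2b and Ighe. In IgM libraries Ighm was followed by Ighg1, Ighg2b, Ighg2c, Ighg3, Ighe, Igha and Ighd. The steps were 5.70-fold, 3.07-fold and 2.57-fold down to Ighg2c, each without overlap, and the ranges of Ighg2c, Ighg3, Ighe and Igha overlapped from one neighbour to the next. Among all genes by FPKM, Ighg2b ranked 255 to 477 in IgG1 libraries and 18 to 23 in IgM libraries.

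Together the 5 switched isotypes that were not sorted on summed to 748 to 1114 FPKM in IgG1 and 6928 to 14841 FPKM in IgM libraries. As a share of the summed FPKM of all 8 constant genes they made up 0.938% ± 0.178 in IgG1 and 9.63% ± 2.05 in IgM libraries (SD, n = 5 each). All 8 genes together came to 95872 ± 8072 FPKM in IgG1 and 111190 ± 6957 FPKM in IgM libraries.

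The make-up of these 5 genes also differed between the groups, with Ighg3 taking a larger part and Ighg2b a smaller one in IgG1 libraries. Shares are of the summed FPKM of the 5 genes, so a larger share of one lowers the others. Ighg3 took 21.5%, 24.9%, 30.8%, 21.7% and 24.2% in IgG1 libraries, against 18.6%, 13.7%, 10.6%, 13.2% and 16.2% in IgM libraries, without overlap. The means were 24.6% ± 3.76 and 14.4% ± 3.04, 10.2 percentage points apart (SD over 5 libraries each; exact permutation test, two-sided, p = 0.00794, the smallest that 5 against 5 libraries can give, or 0.0238 after adjustment).

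Ighg2b took 32.3%, 28.4%, 25.9%, 37.6% and 29.0% in IgG1 libraries, against 37.9%, 49.6%, 54.2%, 41.6% and 48.8% in IgM libraries. Every IgG1 share lay below every IgM share, though IgG1 library 4 and IgM library 1 came within 1 percentage point of each other. The means were 30.6% ± 4.51 and 46.4% ± 6.57, a difference of -15.8 percentage points (SD over 5 libraries each; exact permutation test, two-sided, p = 0.00794, or 0.0238 after adjustment).

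Igha took 15.2% ± 2.31 in IgG1 and 9.47% ± 4.29 in IgM libraries, 5.70 percentage points apart, which missed the threshold after adjustment (SD over 5 libraries each; exact permutation test, two-sided, p = 0.0397, or 0.0595 after adjustment). IgM library 4, at 16.6%, was the only IgM library inside the IgG1 range of 11.8% to 18.3%. Without it the difference was 7.48 percentage points. Taking out the only overlapping library separates the groups by construction, so no test is drawn from that choice. Ighg2c took 16.2% ± 4.45 in IgG1 and 18.0% ± 4.73 in IgM libraries (SD over 5 libraries each; exact permutation test, p = 0.548, or 0.587 after adjustment). Neither this difference nor that of Ighe passed. Ighe took 13.4% ± 2.14 in IgG1 and 11.7% ± 4.48 in IgM libraries (exact permutation test, p = 0.587 before and after adjustment), and IgM library 3 had 3.87% where the other IgM libraries had 11.8% to 14.4%. As shares of all 8 genes each of the 5 was lower in IgG1, for instance by 1.21 percentage points for Ighg3 (0.229% against 1.44%) and by 4.08 for Ighg2b (0.290% against 4.37%). Of that total Ighg1 took 97.8% in IgG1 libraries and Ighm 77.0% in IgM libraries.

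**Figure D2:**
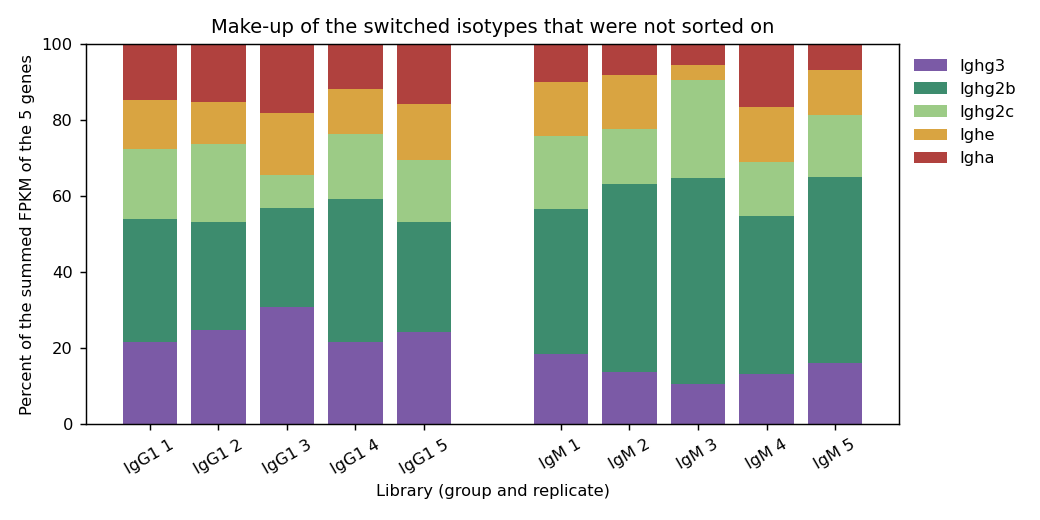
Percent of the summed FPKM of Ighg3, Ighg2b, Ighg2c, Ighe and Igha taken by each gene, with 1 stacked bar per library, IgG1 libraries left and IgM libraries right. Ighg3 takes 21.5% to 30.8% in IgG1 and 10.6% to 18.6% in IgM libraries, and Ighe is at 3.87% in IgM library 3.

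Within a group, most isotypes that were not sorted on varied more than other well expressed genes. The SD of log2 FPKM over the 5 IgG1 libraries was 0.18 for Ighg3, 0.38 for Ighg2b, 0.63 for Ighg2c, 0.22 for Ighe and 0.23 for Igha. Over the 5 IgM libraries it was 0.69 for Ighg3, 0.24 for Ighg2b, 0.38 for Ighg2c, 1.17 for Ighe and 0.87 for Igha. For 823 genes outside the immunoglobulin loci with a mean of at least 100 FPKM, the median SD was 0.0943 in IgG1 and 0.0834 in IgM libraries, and all but the top 5% of these genes lay below 0.185 and 0.168. Of the unsorted switched isotypes, Ighg3 in IgG1 libraries alone lay within that range. Ighd, with its low level, had SDs of 0.98 in IgG1 and 2.81 in IgM libraries. Ighm stayed inside the range of the other genes, at 0.10 in IgG1 and 0.06 in IgM libraries, as did Ighg1 in IgG1 libraries at 0.12, but not in IgM libraries at 0.44.

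No correlation was computed over the 5 libraries of a group, and joint variation was read from ratios instead. Where the log2 ratio of a pair of genes varies less over the libraries than either gene alone, the pair is counted here as moving together. The rule passes over pairs whose genes differ much in spread, and the number of such pairs among unrelated genes was not computed. In IgG1 libraries this held for 2 of the 15 pairs of switched isotypes, Ighg3 with Igha (SD of the log2 ratio 0.13) and Ighe with Igha (0.17). In IgM libraries it held for 4 of 15 pairs, Ighg3 with Ighg1 (0.43), Ighg3 with Ighe (0.63), Ighg3 with Igha (0.60) and Ighe with Igha (0.60). The pairs of Igha with Ighg3 and with Ighe were thus shared by both groups. Ighg1 with Igha in IgM libraries, at 0.50, lay below Igha alone (0.87) but above Ighg1 alone (0.44), and so is not among the 4. No pair with Ighd did so in either group, out of 7 pairs in each. Ighg2b and Ighg2c, the pair closest in sequence, had ratio SDs of 0.41 in IgG1 and 0.35 in IgM libraries, below that of Ighg2c alone and above that of Ighg2b alone in both. Over all 10 libraries, the difference between the groups included, each of them was still the nearest of the 8 genes to the other, with a root mean square difference of 0.40 between centred log2 profiles. Ighg3 and Igha, far apart on the locus and less alike in sequence, were nearest to each other in the same way (0.39).

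**Figure D3:**
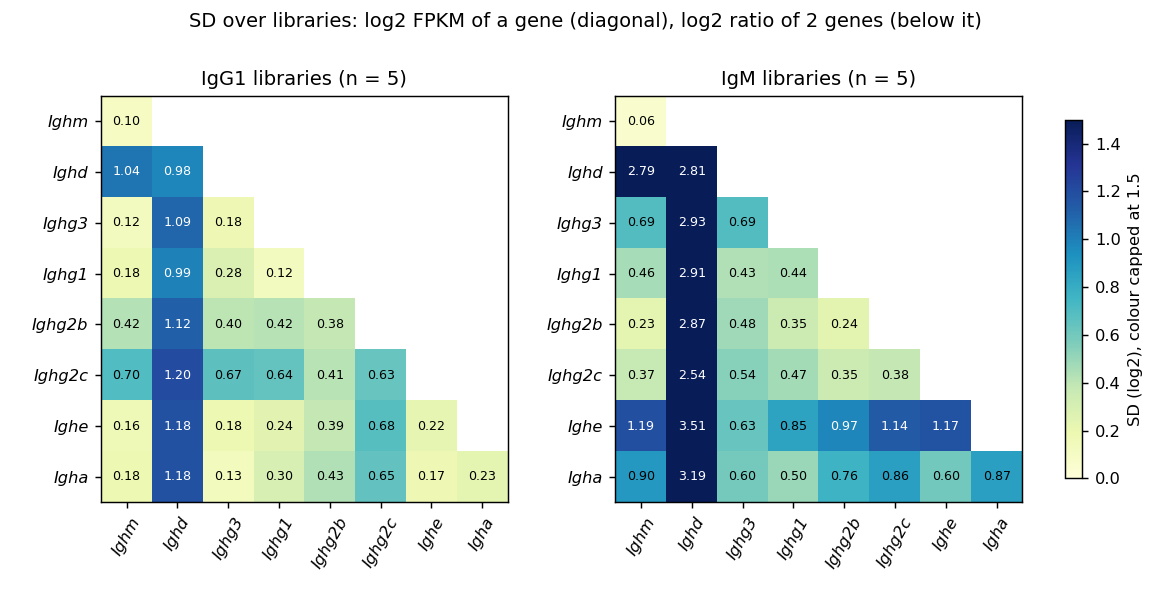
SD over the 5 libraries of a group, IgG1 left and IgM right, of the log2 FPKM of each gene (diagonal) and of the log2 ratio of each pair of genes (below the diagonal). A pair that varies less than both its genes is counted as moving together: Igha with Ighg3 is at 0.13 in IgG1 and 0.60 in IgM libraries, and the row and column of Ighd are dark.

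The order of libraries within a group is given as a description, and the ratios were not recomputed with a library left out. In the IgM group, library 3 was the lowest for 5 of the 6 switched isotypes, Ighg3, Ighg1, Ighg2b, Ighe and Igha, and it was the highest for Ighd. IgM library 1 was the highest for 4 of the 6 (Ighg3, Ighg2b, Ighg2c and Ighe) and IgM library 4 for the other two, Ighg1 and Igha. Relative to Ighg1 in the same library, Ighe was 2.83% in IgM library 3 and 8.15% to 12.3% in the other IgM libraries, and Igha was 4.14% there and 4.82% to 9.36% in the others. Ighg2c was 18.8% of Ighg1 in IgM library 3 and 8.02% to 15.6% in the others, the highest of the group. Igkc, the constant gene of the kappa light chain, was at 69317, 43425, 43341, 66283 and 46120 FPKM in IgM libraries 1 to 5, highest in libraries 1 and 4, which also held the highest value of each switched isotype. Ighv1-72, the variable gene of the B1-8 heavy chain, was at 26391 ± 2755 FPKM in IgG1 and 24729 ± 1447 FPKM in IgM libraries (SD, n = 5 each). The part of kappa-expressing cells in the spread of the isotypes was not tested.

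In the IgG1 group, library 1 was the highest for 4 of the 6 switched isotypes (Ighg2b, Ighg2c, Ighe and Igha) and the lowest for Ighd. IgG1 library 3 was the lowest for Ighg2b and Ighg2c and the highest for Ighg3 and Ighm, and IgG1 library 5 was the lowest for Ighg3 and the highest for Ighg1. Igkc ran from 14466 to 20280 FPKM in these libraries, with its highest value in library 5.

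**Figure D4:**
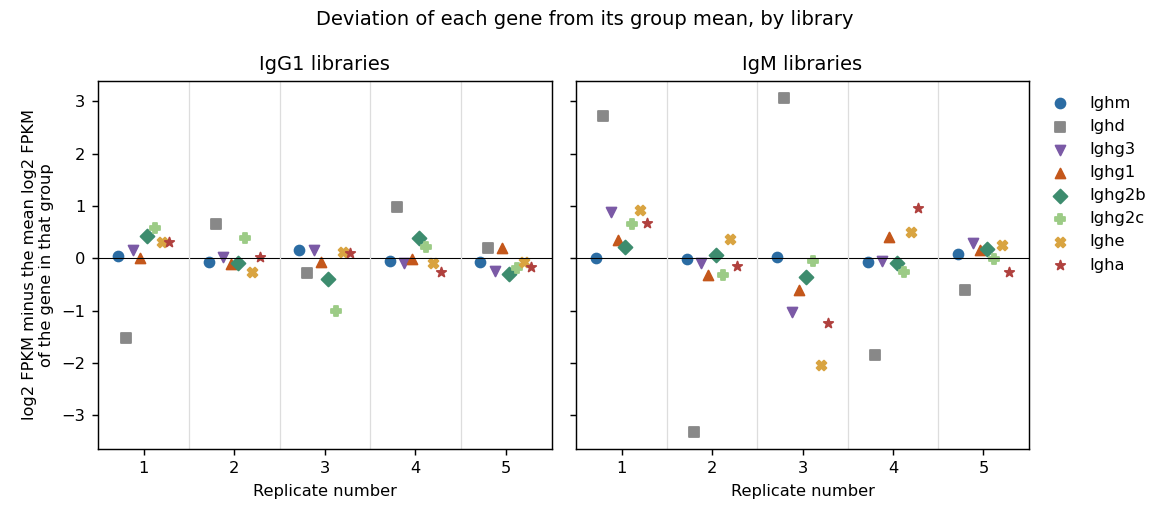
Deviation of the log2 FPKM of each gene from its mean over the group, for replicates 1 to 5 of IgG1 (left) and IgM (right). In IgM library 3, Ighg3, Ighg1, Ighg2b, Ighe and Igha lie below their means together (Ighe at 268 FPKM) while Ighd lies above its mean (119 FPKM), and Ighm stays near 0 in every library.

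For each gene the most similar profiles outside the 8 were sought among 9892 genes, by the root mean square difference of centred log2(FPKM + 1) values over the 10 libraries, in which the difference between the groups weighs most. Nearest to Ighm were the heavy chain variable genes Ighv6-3 (0.69), Ighv1-15 and Ighv6-6. Nearest to Ighg1 were Itgb7, an integrin beta chain (0.52), Tmem238 and Pycard, an inflammasome adaptor. Ighg3 and Igha had the same 3 neighbours, Gm37376 (0.35 and 0.48), the nuclear long non-coding RNA Malat1 (0.37 and 0.50) and Gm8995. Ighg2b lay nearest to Ighv1-55 (0.55), Hdac9 and Ighv6-3, and Ighg2c to Apoe (0.62), Ighv9-3 and Hdac9. Ighe lay nearest to Igkv8-24 (0.54), Ighv1-53 and Ighv1-55, all variable genes. Ighd had only loose neighbours, CAAA01098150.1 (0.86), Snora78 and Ighv1-2, each with a mean of 17.3 FPKM or less in IgM libraries. These likenesses are a description, with no test.

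Genes of the switching pathway were called in both directions. Of 35 genes of class switch recombination, 34 were tested, and 5 were called higher and 2 lower in IgG1, 14.7% and 5.88% of them, beside the 18.1% and 20.2% of all genes. The median log2 difference was -0.02. With a total that leaves out J and D segments, the median over all genes was 0.13, 2839 genes were called higher and 1187 lower against 1791 and 2001 as deposited, and of the switching genes 10 were called higher and 1 lower.

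Among the switching genes called higher were Apex1, an endonuclease that cuts at abasic sites, at 22.1 ± 4.39 FPKM in IgG1 and 9.95 ± 2.42 FPKM in IgM libraries (SD, n = 5 each). Lig1, a DNA ligase, stood at 55.9 ± 9.30 and 29.7 ± 5.54 FPKM, H2afx, the histone marked at DNA breaks, at 108 ± 7.28 and 77.4 ± 7.93 FPKM, and Mad2l2, a member of the shieldin complex that protects break ends, at 38.8 ± 7.26 and 27.0 ± 2.37 FPKM. Paxx, a factor of end joining, was lower, at 10.4 ± 1.56 FPKM in IgG1 and 22.4 ± 2.81 FPKM in IgM libraries. The log2 differences ran from 0.48 for H2afx to 1.08 for Apex1, and that of Paxx was -1.04. Hmces and Supt5, the highest of those that did not pass, differed by -0.21 and 0.07, and Supt5 passed with J and D segments out of the total (0.28). The 5 named genes that passed did so under each of the 3 other scalings as well.

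On the deposited scale, the receptors that direct switching were lower in IgG1 wherever they passed the test. Of 16 listed, 15 were tested, none was called higher and 7 lower (46.7%, beside 20.2% of all genes called lower and 18.1% higher), with a median log2 difference of -0.39, and Tlr9 was listed at 0 in all libraries. Il13ra1, the receptor chain that binds interleukin 13 and pairs with the interleukin 4 receptor, was at 3.78 ± 1.23 FPKM in IgG1 and 17.2 ± 4.04 FPKM in IgM libraries (SD, n = 5 each, log2 difference -1.94). Tgfbr2, a receptor for TGF-beta, the cytokine that directs switching to IgA, was at 3.43 ± 0.628 and 7.08 ± 1.74 FPKM (log2 difference -0.85). Tnfrsf13b (TACI), Tnfrsf13c (the BAFF receptor) and Il2rg, the common cytokine receptor gamma chain, differed by -0.41, -0.47 and -0.39. With J and D segments out of the total, these last 3 genes no longer passed (-0.20, -0.26 and -0.18), and 1 receptor was called higher and 2 lower. Myd88 and Ifngr1 did not pass, at 0.27 and 0.00, though Myd88 passed with median-ratio scaling (0.30, adjusted p = 0.0436) and with J and D segments out of the total (0.47).

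Of 24 transcription factors that act on germline transcripts, 18 were tested, and 2 were called higher and 2 lower, 11.1% each, beside 18.1% and 20.2% of all genes, with a median of -0.22. Tcf3 (E2A) differed by 0.35 and Smad3, which carries TGF-beta signals, by 0.52, against -0.67 for Relb and -0.33 for Ikzf1, and Cbfb (-0.25) did not pass. On a common total without immunoglobulin genes Smad3 no longer passed (0.50, adjusted p = 0.0515) and Cbfb passed (-0.27, adjusted p = 0.0492), and with median-ratio scaling Ikzf1 did not pass (-0.30, adjusted p = 0.0524). Of 10 genes of heavy chain RNA processing, 9 were tested, and 3 were called higher and 2 lower, 33.3% and 22.2%, beside the same shares of all genes, with a median of 0.13. Ell2, an elongation factor that favours the secreted form of the heavy chain, stood at 148 ± 9.01 FPKM in IgG1 and 197 ± 14.5 FPKM in IgM libraries (SD, n = 5 each, log2 difference -0.41), and Pcf11 differed by -0.91. Higher in IgG1 were Hnrnpll (0.93), Nudt21 (0.57) and Cstf2 (0.45), while Cdk9 (0.13) and Cpsf6 (0.20) did not pass. With J and D segments out of the total, 3 of the transcription factors were called higher and none lower, and 5 of the RNA processing genes higher and 1 lower, with Cdk9 (0.34) and Cpsf6 (0.41) now passing and Ell2 (-0.20), Relb (-0.49) and Ikzf1 (-0.13) no longer passing. Where no other scaling is named, the log2 differences and calls of these 4 lists come from limma over all 9900 genes with Benjamini-Hochberg adjustment. The same fit covered 9897 genes with median-ratio scaling. It covered 9903 with a total without immunoglobulin genes and 9889 with a total without J and D segments.

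**Figure D5:**
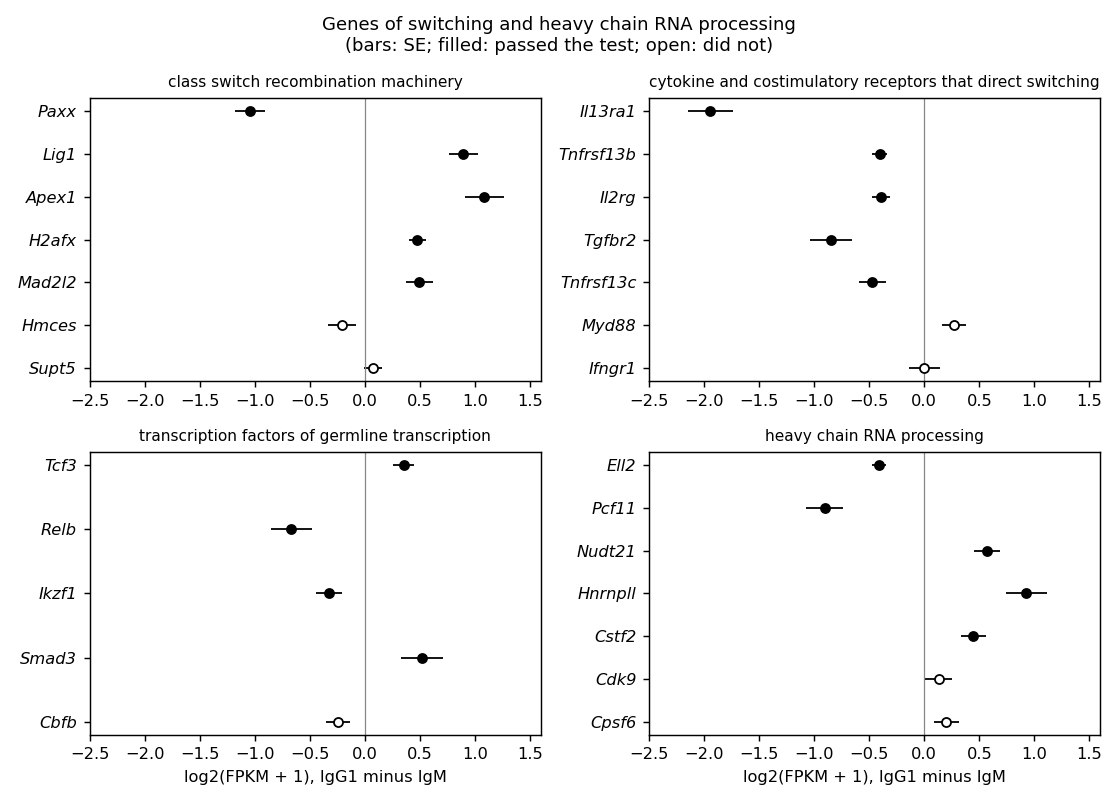
Log2 difference of FPKM + 1, IgG1 minus IgM, for the named genes of switching and heavy chain RNA processing, with bars for the SE. Filled points passed the test and open points did not. Il13ra1 has the most negative difference (-1.94) and Apex1 the most positive (1.08), and Ell2, Relb, Ikzf1, Il2rg, Tnfrsf13b and Tnfrsf13c no longer pass when J and D segments are left out of the total.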

How the data were processed

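The 10 libraries were made with SMART-Seq mRNA HT LP from RNA of the miRNeasy Micro kit, per the labels' protocols. The kit does not mark strand. HISAT2 2.1.0, Cufflinks 2.2.1, Cuffdiff and the build GRCm38 are named per the submitters' processing notes. What each did, and with which annotation, is not given in the sources used here. The deposited values are FPKM per gene and library, per the file headers and names, with no scaling across libraries stated. FPKM is a share of a library, so very high genes lower the rest, and an exact 0 may be a failed estimate. The 10 files all differ.

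Of 47719 identifiers 47305 matched GENCODE M21, which gave symbols, coordinates and sequences. Genes averaging at least 1 FPKM were tested on log2(FPKM + 1) with limma 3.58.1 in R 4.3.3 (trend and robust, group as the only term, two-sided, Benjamini-Hochberg threshold 0.05), and the constant genes were read from that fit. Such differences understate the change of low genes. For shares, exact permutation tests (two-sided) were run in scipy 1.17.1 and adjusted over 6 tests. Tables and plots used numpy 2.4.6, pandas 2.3.3 and matplotlib 3.10.9 in Python 3.11.15. Scripts were tested on simulated data.

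The constant genes, the lists and the tests were chosen with earlier results of these data known. Of each pathway list up to 5 called genes with the smallest p and up to 2 uncalled genes with the highest level are named, and for each constant gene its 3 nearest profiles. Alternatives were other pseudocounts, filters, scalings, eBayes settings and share definitions, a replicate block and each library left out; a total without J and D segments was chosen after seeing the data. The labels give no batch. Some genes that this rule takes are not reported here.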

Additional observations from a re-analysis of the deposited data

Results flagged for a closer look

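Among 28 sets of 5 values (level of each constant gene, make-up shares and Ighd relative to Ighm, in each group), 2 held a value far from the others, with a gap to its neighbour of more than 0.71 of the range. Chance flags about 1 in 20 such sets. For Ighg2c, IgM library 1 had 2880 FPKM and the next highest 1827 FPKM, a gap of 0.748 of the range. For the share of Ighe among the 5 switched isotypes that were not sorted on, IgM library 3 had 3.87% and the next lowest 11.8%, a gap of 0.749 of the range.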

How the results depend on the processing

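Over 19 alternatives, 6 constant genes were called lower each time, 2818 to 4026 of all genes were called, and each constant gene kept its direction and its side of the threshold. The log2 difference of Ighd ranged from -2.84 to -1.43 and never passed. Replicate numbers did not pair the libraries (correlations of -0.04 to 0.10, with only replicate 3 closest to its own number); with the replicate block limma called 3701 genes and 6 constant genes as lower. For shares, differences are in percentage points of the 5 switched isotypes that were not sorted on. The replicate block gave the same differences of 10.2 for Ighg3, -15.8 for Ighg2b and 0.224 for Ighd relative to Ighm, with adjusted p = 0.1875 in exact sign-flip permutation tests that cannot go below 0.0625 unadjusted. As shares of all 8 genes the differences were -1.21 for Ighg3, -1.06 for Ighe and -0.798 for Igha, opposite in sign, and -1.54 for Ighg2c, now past the threshold; the 5 isotypes together took 0.938% of that total in IgG1 and 9.63% in IgM libraries. With each library left out in turn, Ighg3 ranged from 8.64 to 11.2 and Ighg2b from -17.9 to -13.8, all past the threshold. Ighg2c ranged from -2.89 to 0.0751 (0.0322 without IgG1 library 3 and 0.0751 without IgM library 3), and Ighe from -0.230 without IgM library 3 to 2.42, none past it. Igha ranged from 4.75 to 7.48, the latter without IgM library 4, the only IgM library inside the IgG1 range. No test is drawn from that removal, and with any other library left out Igha did not pass. Ighd relative to Ighm ranged from 0.174 to 0.274 and passed only without IgG1 library 1, whose removal separates the groups by construction. With 4 against 5 libraries the smallest exact permutation p is 0.0159. The Ighd levels stand for about 46 to 330 fragments in IgG1 and 75 to 6827 in IgM libraries.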
